A study of Mus musculus with 24 samples.

Results

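The Serpina members described here are 10 mouse genes of serpin clade A: Serpina1a, Serpina1b, Serpina1c, Serpina1d, Serpina1e, Serpina3k, Serpina3m, Serpina3n, Serpina6 and Serpina7. They were read by 12 array probes, chosen as all non-control probes that carry one of these gene names in the scanner files, out of 56605 probes; by gene they are 10 of 21402 tested. All 12 were among the 32078 probes tested, and each was well above background on 24 of 24 arrays. Liver RNA of C57BL/6J mice was hybridised to single-colour 60-base arrays, 6 arrays for each of 4 labelled groups. The labelled groups were males and females on a control diet, and males and females given that diet with a pesticide mixture added at the Acceptable Daily Intake level. All groups share the strain, the labelled age of 68 weeks and the feeding period of 52 weeks; the age at purchase, the acclimatisation and the feeding period of the protocols add up to less than the labelled age. The labels give no mouse number, so p-values measure the spread between liver samples.

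Serpins are protease inhibitors of blood plasma and tissues. A serpin offers a flexible reactive centre loop as bait, and a protease that cuts this loop is carried across the serpin and trapped. The liver secretes most clade A serpins. The Serpina1 genes encode alpha-1 antitrypsins, some of which inhibit neutrophil elastase, and the Serpina3 genes encode relatives of antichymotrypsin. Serpina6 and Serpina7 encode corticosteroid-binding globulin and thyroxine-binding globulin, which carry hormones and inhibit no protease.

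The sex labels have to be read with care for every result. Xist, the RNA of the inactive X chromosome, stood well above background on each pesticide array of either labelled sex and on no control array. For Eif2s3y, Ddx3y, Kdm5d and Uty of the Y chromosome it was the reverse, on all 24 arrays. Sex and diet therefore cannot be told apart here, and a difference between labelled diets cannot be given to the pesticides. The groups overlapped in their hepatocyte markers. The log2 of the summed signal of 9 tested markers spanned 21.08 to 21.16 in labelled male control and 21.01 to 21.11 in female control. It spanned 21.03 to 21.17 in male pesticide and 21.07 to 21.19 in female pesticide. That overlap is no measure of equal hepatocyte content. Quantile normalisation gives each rank the same value on all arrays, which can leave bright probes little room to differ. Because of the sex genes, the groups below keep the word "labelled".

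The mouse Serpina1 genes are recent copies of each other, and the probe sequences show how much of one paralog's signal another can share. A first set of probes lies in the coding sequence around the reactive centre loop, the part in which the paralogs differ most. In these lines, written 5′ to 3′, capitals mark the bases at which the Serpina1b probe and another of the set differ where they overlap.
Serpina1b A_66_P134973: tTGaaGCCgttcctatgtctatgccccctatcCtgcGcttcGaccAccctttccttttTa
Serpina1a A_55_P2010312: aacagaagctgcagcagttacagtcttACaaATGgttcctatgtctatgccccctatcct
Serpina1e A_66_P124137: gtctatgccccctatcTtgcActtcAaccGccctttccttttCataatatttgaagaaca
The Serpina1a probe matched the Serpina1b probe at 29 of 34 overlapping bases, with 26 of them in 1 run. The Serpina1e probe matched it at 39 of 44 overlapping bases, with a longest shared run of 16.

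A second set lies nearer the 3′ end of the transcripts, and 30 bases of each probe are shown because they are almost the same in 3 genes. Capitals again mark bases that differ from the Serpina1c probe.
Serpina1c A_55_P2010301: GaTgtcatccttccttctgaattgggttcc
Serpina1a A_55_P2165414: Aatgtcatccttccttctgaattgggttcc
Serpina1e A_55_P2113857: gaAgtcatccttccttctgaattgggttcc
The Serpina1a and Serpina1c probes agreed at 50 of 51 overlapping bases, with a shared run of 47. The Serpina1e probe shared a run of 29 bases with both. The accession column of the scanner files lists 3 genes for the Serpina1c probe, Serpina1a, Serpina1b and Serpina1c, and 2 for the Serpina1d probe, Serpina1b and Serpina1d. The values of the 7 Serpina1 probes are therefore given by probe, and none of them is assigned to 1 paralog with certainty.

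The probes of the other members are single. The Serpina3k probe is given in full because it carries one of the main differences, and the first 30 bases are given of the Serpina3m and Serpina6 probes, which carry the others.
Serpina3k A_51_P240041: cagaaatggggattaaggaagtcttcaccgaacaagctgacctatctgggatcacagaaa
Serpina3m A_51_P358012: atctgtgcatgtttctgaacctggagtctg
Serpina6 A_51_P133562: atcttgtaatgaataggccttgttgctact
None of these 3 probes, nor those of Serpina3n and Serpina7, shared 20 bases in a row with a probe of another gene on the array. Probes were compared only with other probes: matches to the transcripts of relatives such as Serpina3h and Serpina3j, outside the stretches their own probes cover, were not tested.

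Between the labelled diets 1 member probe was higher and 2 were lower: in the mean of both labelled sexes Serpina6 stood at 1.97-fold on the labelled pesticide arrays, Serpina3k at 0.473-fold and Serpina3m at 0.794-fold. In labelled males 3 of 12 member probes passed at a limma adjusted p under 0.05, against 22.2% of all tested probes; 1 was higher (11.6% of all) and 2 lower (10.7%). In labelled females 3 of 12 passed, against 18.3% of all; 1 was higher (8.88%) and 2 lower (9.44%). In the mean of both labelled sexes 3 of 12 passed, against 36.1%; 1 was higher (17.5%) and 2 lower (18.6%). After quantile normalisation the members' share was close to that of all probes in each labelled sex and below it in the mean. This depends on the normalisation. With median signal scaled to the 75th percentile, 9 of 12 passed in labelled males, beside 7291 of 32078 tested probes. In the mean 10 of 12 passed, where no setting tried called more than 12652 of all tested probes. The member probes added were all Serpina1 probes, 6 in labelled males and 7 in the mean. The median log2 fold change of the members in the mean of both sexes was -0.01, beside -0.03 for all tested probes.

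**Figure D1:**
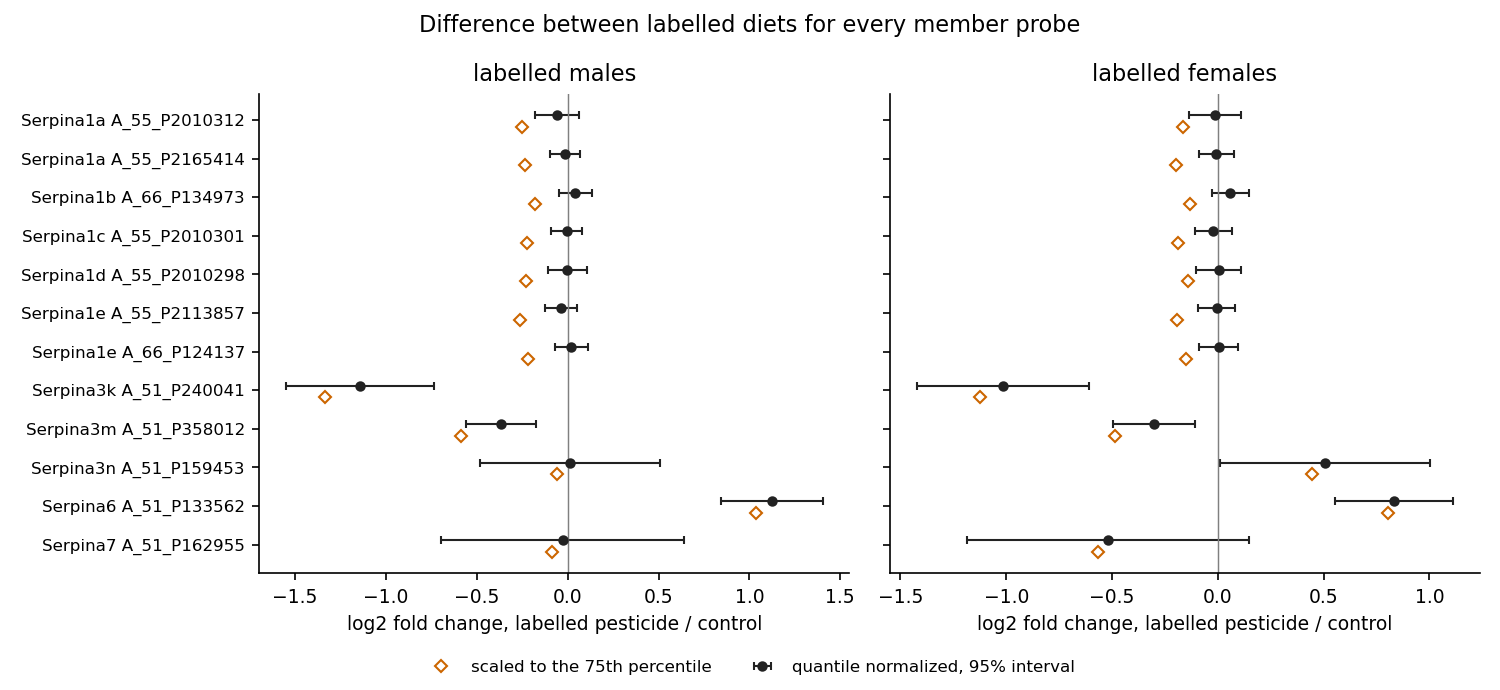
Log2 fold change of labelled pesticide over labelled control for the 12 member probes in labelled males and females. Black points are the quantile-normalised estimates with 95% intervals from limma and open diamonds the values after scaling each array to its 75th percentile; Serpina6 lies to the right of 0, Serpina3k and Serpina3m to the left, and the 7 Serpina1 probes move from about 0 to below 0 with the scaling.

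Serpina6 encodes corticosteroid-binding globulin, the plasma carrier of glucocorticoids; its probe lies at chr12:104884880-104884939 on the minus strand of mm9. In labelled male control livers its log2 signal was 14.86 at the lowest, 15.02 at the median and 15.50 at the highest, and in labelled male pesticide livers 15.94, 16.19 and 16.51. In labelled female control livers it was 14.74, 15.25 and 15.71, and in female pesticide livers 15.79, 16.05 and 16.38. The pesticide groups lay above the control groups without overlap in males, in females and with both sexes joined, as did 5.6%, 3.64% and 1.35% of all tested probes.

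Serpina6 thus rose in both labelled sexes. Its log2 fold change was 1.12 ± 0.14 (SE, n = 6 and 6) in males, 2.18-fold, with a limma adjusted p of 1.75e-06. In females it was 0.83 ± 0.14, 1.78-fold, with a limma adjusted p of 0.000131. The male and female differences were not told apart: the female minus male effect was -0.29 ± 0.19, with a 95% interval of -0.69 to 0.10 and a limma adjusted p of 1. Each of the 3 slides held 2 arrays of every group, and within them the mean difference of both sexes was 1.16, 0.98 and 0.79.

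Serpina3k encodes an antichymotrypsin relative made in large amounts by the liver and also known as a kallikrein-binding protein. Its probe lies at chr12:105582408-105582466 on the plus strand of mm9. In labelled male control livers its log2 signal ran from 17.44 through a median of 17.53 to 17.86, and in male pesticide livers from 16.17 through 16.36 to 17.16. In labelled female control livers it ran from 17.19 through 17.34 to 17.79, and in female pesticide livers from 15.32 through 16.56 to 16.87. The pesticide groups lay below the control groups without overlap in males, in females and with both sexes joined, as did 4.61%, 4.19% and 1.64% of all tested probes. The spread was wider on the labelled pesticide arrays, with an SD of 0.37 in males and 0.57 in females, beside 0.17 and 0.21 on the control arrays; the difference in spread was not tested.

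The log2 fold change of Serpina3k was -1.14 ± 0.20 in labelled males, 0.453-fold, with a limma adjusted p of 0.000204. In labelled females it was -1.02 ± 0.20, 0.494-fold, with a limma adjusted p of 0.000819. Within the 3 slides the mean difference of both sexes was -1.38, -1.02 and -0.84. Without the lowest array, labelled female pesticide 2, or any other single array, the female value stayed between -1.12 and -0.81.

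Serpina3m, a neighbour and close relative of Serpina3k, was lower by a smaller amount; its probe lies at chr12:105632342-105632400 on the plus strand of mm9. Its log2 signal in labelled male control livers was 18.25, 18.37 and 18.52 at the lowest, median and highest array, and in male pesticide livers 17.81, 17.97 and 18.30. In labelled female control livers it was 18.14, 18.28 and 18.40, and in female pesticide livers 17.53, 18.06 and 18.18. The groups overlapped in both sexes.

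The log2 fold change of Serpina3m was -0.37 ± 0.09 in labelled males (limma adjusted p of 0.00701), -0.30 ± 0.09 in labelled females (limma adjusted p of 0.0276) and -0.33 ± 0.07 in their mean (limma adjusted p of 0.000391). Within the 3 slides the mean difference was -0.48, -0.26 and -0.25. The female call was lost without labelled female pesticide 2 (-0.21, limma adjusted p of 0.0711), female pesticide 4 (-0.28, 0.0593), female control 2 (-0.28, 0.0596) or female control 6 (-0.29, 0.0551), and when only the female arrays were fitted (0.0712). Without normalisation the mean difference of Serpina3m was -0.31. With each array scaled to its 75th percentile it was -0.54, under a scaling that moved the median of the 200 brightest tested probes from 0.02 to -0.17.

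**Figure D2:**
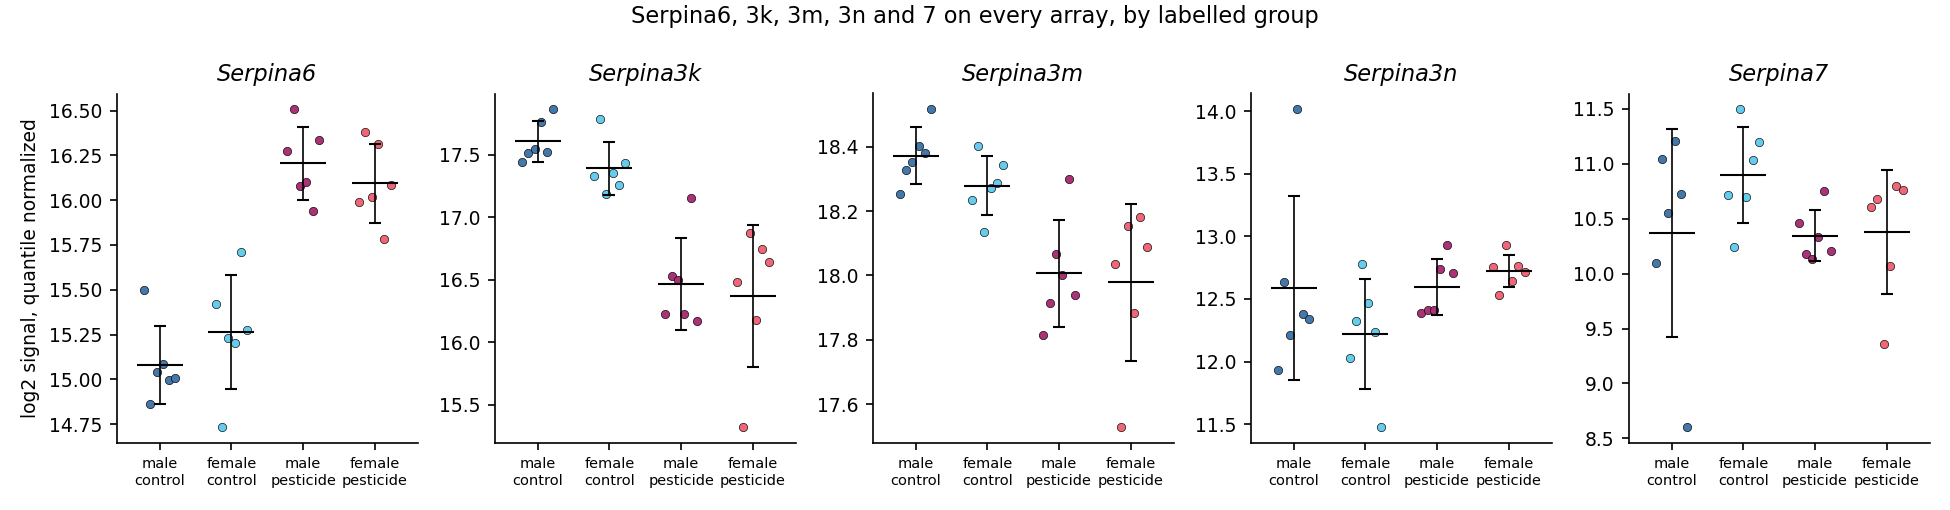
Quantile-normalised log2 signal of Serpina6, Serpina3k, Serpina3m, Serpina3n and Serpina7 on each of 24 arrays, in the 4 labelled groups of 6; horizontal lines are group means and bars the SD. Serpina6 is higher and Serpina3k lower on every labelled pesticide array than on any control array, Serpina3m is lower with overlap, and Serpina3n and Serpina7 each have 1 labelled male control array far from the rest.

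Serpina3n, an antichymotrypsin relative known to rise in the acute phase response and in reactive tissue, did not pass in any comparison. Its probe lies at chr12:105651918-105651977 on the plus strand of mm9. Its log2 signal was 11.93, 12.36 and 14.01 at the lowest, median and highest labelled male control array and 12.39, 12.56 and 12.93 in male pesticide livers. In labelled female control livers it was 11.48, 12.28 and 12.78, and in female pesticide livers 12.53, 12.73 and 12.93. The highest and the lowest of all 24 values were both control arrays, and the labelled pesticide arrays lay between them.

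The log2 fold change of Serpina3n was 0.01 ± 0.24 in males (limma adjusted p of 0.982) and 0.51 ± 0.24 in females (0.149), with a mean of 0.26 ± 0.17 (0.247). Labelled male control 4, at 14.01, decides this: without it the mean was 0.40 with a limma adjusted p of 0.00824, and the female value of 0.51 had 0.026, through the smaller shared spread.

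Serpina7 encodes thyroxine-binding globulin, and it is the member that lies outside chromosome 12, at chrX:135615848-135616502 on the minus strand of mm9. Its log2 signal was 8.60, 10.64 and 11.21 at the lowest, median and highest labelled male control array and 10.14, 10.27 and 10.75 in male pesticide livers. In labelled female control livers it was 10.24, 10.88 and 11.50, and in female pesticide livers 9.36, 10.64 and 10.80. The groups overlapped, and the pooled SD within groups, 0.61, was above that of 98.5% of tested probes.

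The log2 fold change of Serpina7 was -0.03 ± 0.32 in males (limma adjusted p of 0.966), -0.52 ± 0.32 in females (0.282) and -0.27 ± 0.23 in their mean (0.373). Without labelled male control 6, the array at 8.60, the mean was -0.45 with a limma adjusted p of 0.0412. The gene sits on the X chromosome, whose Xist RNA separated the labelled diets. Its 95% interval for the mean difference, -0.74 to 0.20, leaves room for a decrease or a small increase.

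None of the 7 Serpina1 probes passed between labelled diets after quantile normalisation. Their log2 fold changes in the mean of both sexes ran from -0.03 to 0.05, with limma adjusted p-values of 0.199 to 0.979, and their 95% intervals lay between -0.12 and 0.11. The Serpina1b probe gave 0.05 ± 0.03, the Serpina1c probe -0.01 ± 0.03, the Serpina1d probe 0.0015 ± 0.04, and the 2 Serpina1e probes -0.02 ± 0.03 and 0.01 ± 0.03. The 2 Serpina1a probes gave -0.03 ± 0.04 and -0.01 ± 0.03.

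The positions of these probes on the mm9 minus strand of chromosome 12 are chr12:104966520-104966579 for Serpina1b, chr12:105002930-105002989 for Serpina1d and chr12:105133165-105133224 for Serpina1c. The Serpina1a probes lie at chr12:105091819-105091878 and chr12:105091979-105092038, and the Serpina1e probes at chr12:105185172-105185231 and chr12:105185280-105185339.

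These small differences come with a limit of the method. The Serpina1 probes held ranks 4 to 76 among 56605 probes on every array, and quantile normalisation gives each rank the same value on all arrays. The probe Serpina1a A_55_P2165414 had rank 4 or 5 throughout, so its log2 signal was 18.78 on every labelled male control array. The pooled SD within groups was 0.017 to 0.084 for the 7 probes, beside 0.16 to 0.61 for the 5 other members. None was saturated: the highest signal was 60.8% of the saturation value.

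Scaling to the 75th percentile gave another answer. Without normalisation the mean differences ran from -0.002 to 0.072, near those after quantile normalisation. With the median signal of each array scaled to its 75th percentile they ran from -0.23 to -0.15, and all 7 probes passed, with limma adjusted p-values of 0.00106 to 0.0143. Under the same scaling 6 of 7 passed in labelled males (-0.26 to -0.18) and 0 of 7 in labelled females (-0.20 to -0.13, limma adjusted p-values of 0.0578 to 0.237). The direction of Serpina1b, Serpina1d and 1 Serpina1e probe (A_66_P124137) thereby flipped. The 200 brightest tested probes moved alike, as given for Serpina3m, while the median of all tested probes went from -0.03 to -0.05. In labelled males the share of higher among called probes moved from 52.1% to 38.1%. Whether the Serpina1 transcripts differed between labelled diets by this amount cannot be settled from these signals.

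**Figure D3:**
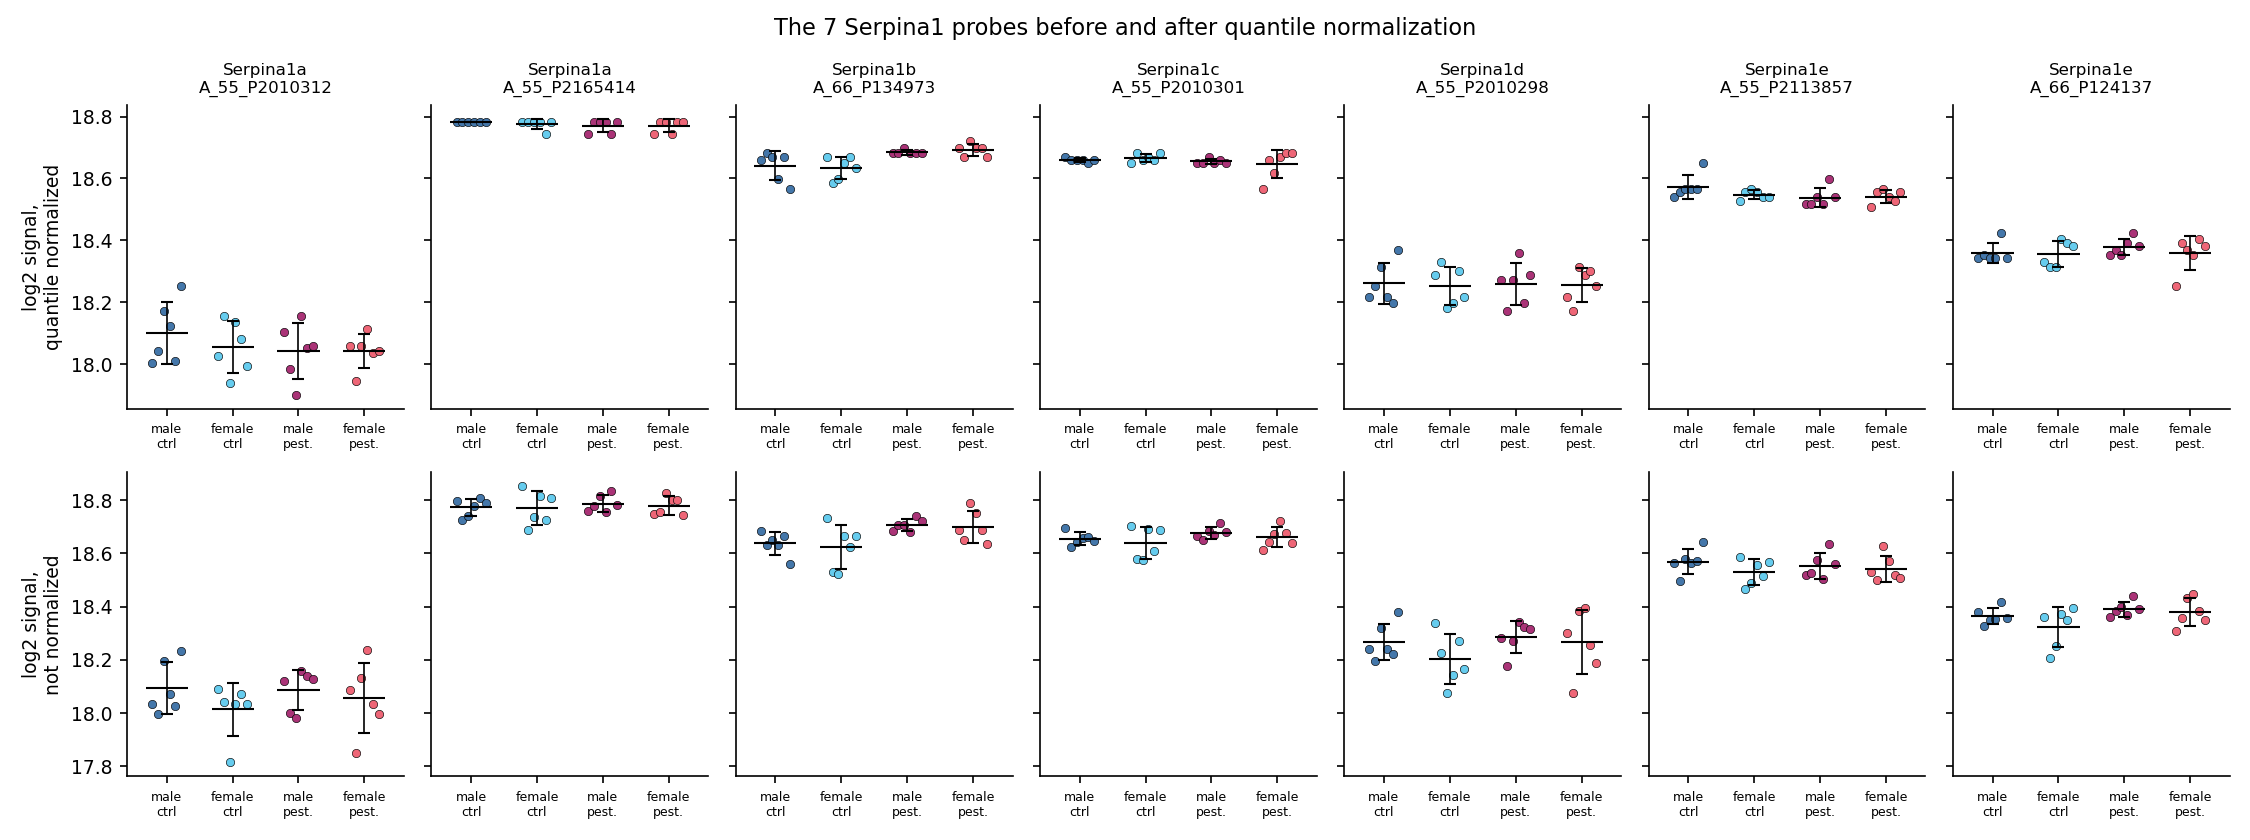
Log2 signal of the 7 Serpina1 probes on 24 arrays in the 4 labelled groups, after quantile normalisation (top) and without normalisation (bottom); lines are group means and bars the SD of 6 arrays. The groups overlap for every probe, and the top row shows values pinned to a few levels where a probe keeps its rank.

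No member passed between the labelled sexes. Within a diet both labelled sexes had the same state of Xist and the Y genes, so comparing them could not show a sex difference. The 5 sex chromosome genes and the 10 female-biased and 10 male-biased liver genes also had 0 called. Between labelled males and females 0 of 12 probes passed on the control diet and 0 of 12 on the pesticide diet, and 0 of 12 passed the test of the difference between female and male effects; in all 3 comparisons limma called 0% of all tested probes. At an unadjusted p under 0.05 the members counted 0 in each of the 3, beside 1792, 1311 and 1265 of all tested probes. The largest member difference between the labelled sexes was that of Serpina7 on the control diet, -0.53 ± 0.32 for male minus female. Serpina3k differed by 0.22 ± 0.20 and Serpina6 by -0.18 ± 0.14 there, and by 0.09 and 0.11 on the pesticide diet.

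Within groups, array by array, Serpina3k and Serpina3m moved together. After each group's mean was removed, their log2 signals correlated over 24 arrays with a Pearson r of 0.94 and a Spearman rho of 0.86; with arrays permuted within groups 100000 times, the p adjusted over 45 pairs of member genes was 0.00045 for r and 9e-04 for rho. Without the 2 arrays farthest out, labelled female pesticide 2 and male pesticide 5, r was 0.86. Serpina6 went the other way, with r of -0.61 and rho of -0.65 against Serpina3m (adjusted permutation p of 0.015 and 0.036, r of -0.56 without those 2 arrays). Against Serpina3k its r was -0.58 (adjusted permutation p of 0.021) and its rho -0.53 (0.21), so the rank measure did not pass. No other of the 45 pairs passed, and values of the Serpina1 probes in these pairs are limited by their fixed ranks.

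The genes most like Serpina3k and Serpina3m were other Serpina3 genes of the same chromosome. Among 21380 genes outside the members, the highest Pearson r of group-centred values was that of Serpina3j for both (0.947 with Serpina3k, 0.962 with Serpina3m), followed by Serpina3h (0.936 and 0.916). For Serpina6 it was Ltbr, a receptor for lymphotoxin, at 0.788, then Gm8221 at 0.782. For Serpina7 it was Btc, the growth factor betacellulin, at 0.775, then Trim34b at 0.772. For Serpina3n a transcript with no gene name came first at 0.948, then Krtap11-1 at 0.929. For the Serpina1 genes the nearest were Srp14 and Csnk1d (Serpina1a), Hpgd and Lclat1 (Serpina1b), 4930438E09Rik and Spg11 (Serpina1c), Tpst1 and Sned1 (Serpina1d) and Sun5 (Serpina1e), with r from 0.659 to 0.854. These Serpina1 values too are limited by fixed ranks: the Serpina1a probe used, A_55_P2165414, had rank 4 or 5 on every array. All points share slides, normalisation and liver pieces, and no p is given.

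**Figure D4:**
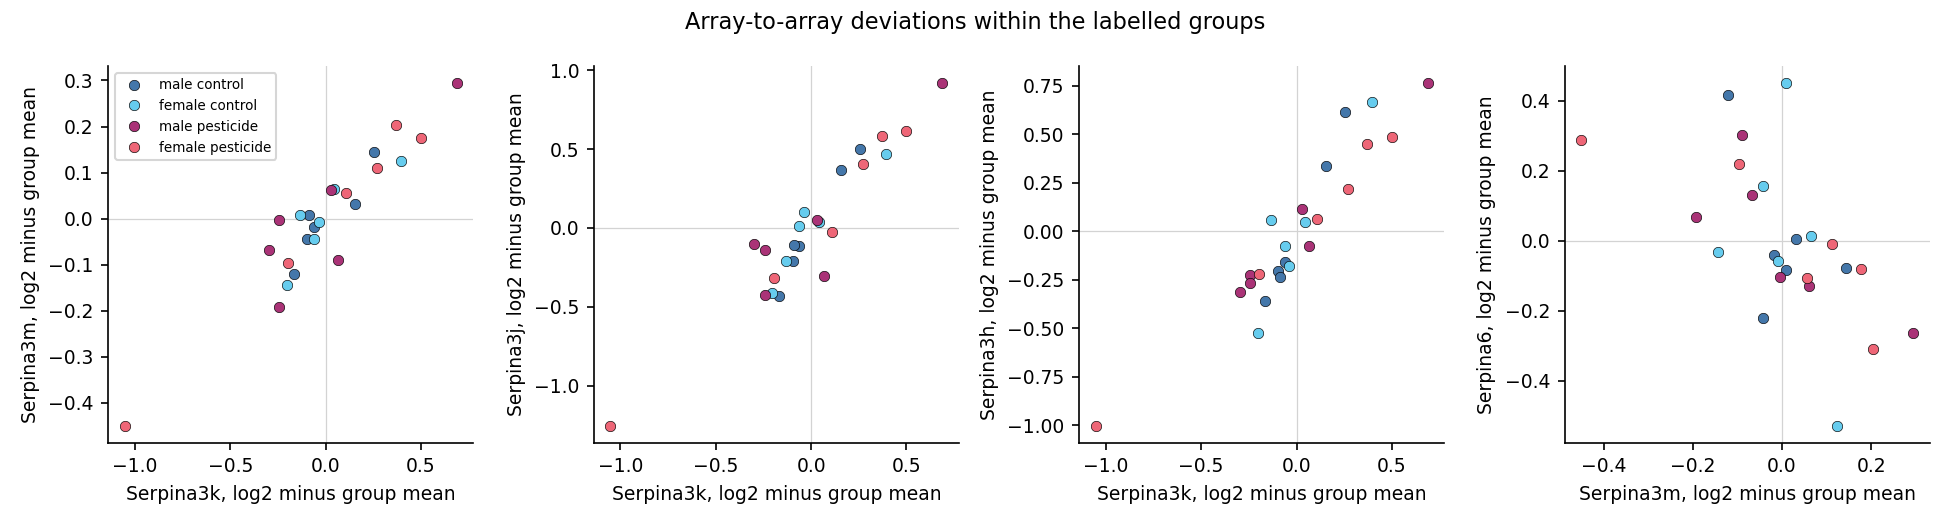
Log2 signal minus the group mean on 24 arrays, coloured by labelled group, for Serpina3m, Serpina3j and Serpina3h against Serpina3k and for Serpina6 against Serpina3m. The first 3 panels rise (r of 0.94, 0.947 and 0.936), with labelled female pesticide 2 lowest and male pesticide 5 highest, and the last panel falls (r of -0.61).

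All members but Serpina7 sit in a row of clade A serpins on chromosome 12, and the row was not uniform. In probe order, 23 Serpina genes of this chromosome were tested, over 787 kilobases of mm9. In the mean of both labelled sexes 11 of the 23 passed, 3 higher and 8 lower. By their brightest probe 19.4% of all tested genes were higher and 18.3% lower. Serpina6 was higher, and the 4 genes from Serpina9 to Serpina5 were all lower. Serpina1f (0.10 ± 0.18) and the 5 Serpina1 members after it did not pass after quantile normalisation, with the limit of ranks given above for these members. In the Serpina3 stretch Serpina3c was higher by 1.09 ± 0.11 and Serpina3i by 0.20 ± 0.08 (limma adjusted p of 0.0469), while Serpina3h (-1.48), Serpina3j (-1.22), Serpina3k (-1.08) and Serpina3m (-0.33) were lower and Serpina3n did not pass.

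**Figure D5:**
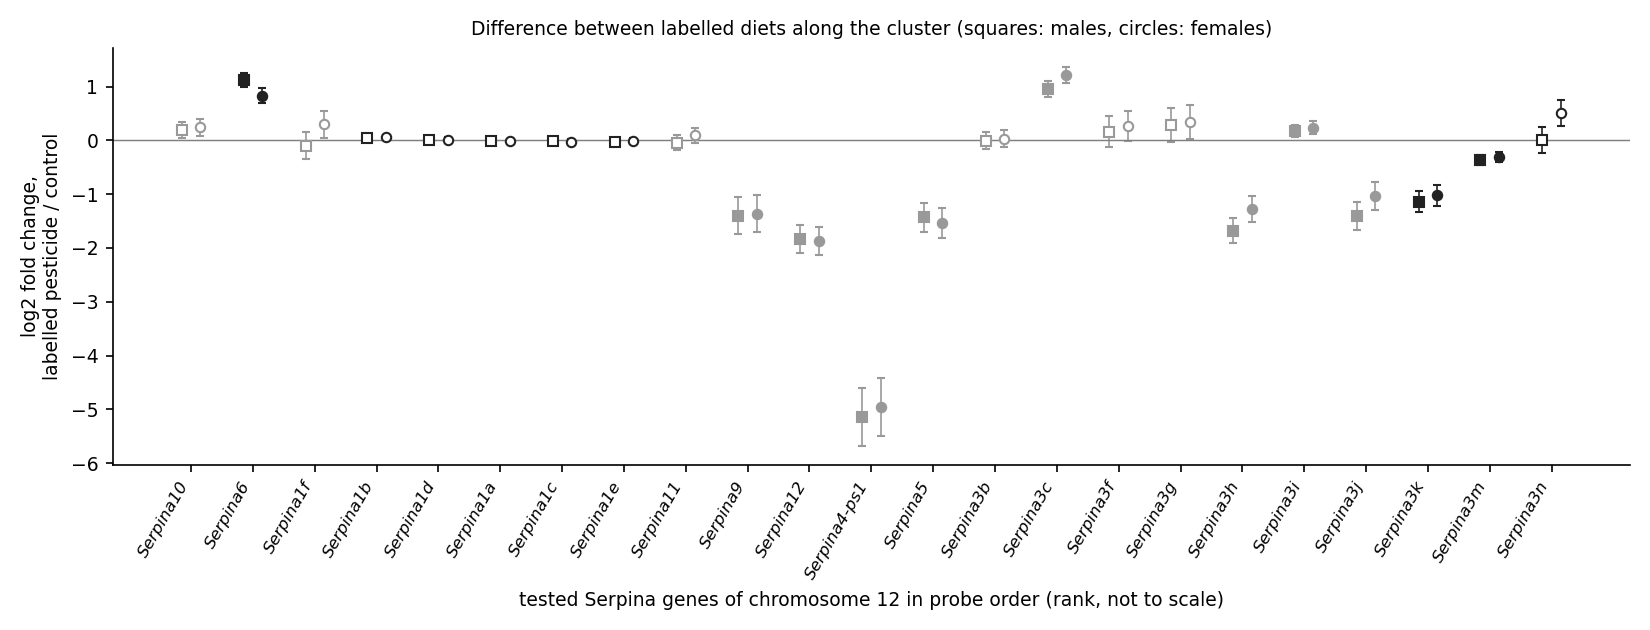
Log2 fold change of labelled pesticide over labelled control, with SE bars, for 23 tested Serpina genes of chromosome 12 in probe order (squares for labelled males, circles for labelled females; black for members, grey for others; filled where the mean of both sexes passed). The 5 Serpina1 genes lie near 0 after quantile normalisation, Serpina6 and Serpina3c are up, and Serpina4-ps1 is the lowest at -5.05 in the mean.

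Of 15 tested other clade A serpins, 3 were higher and 6 lower in the mean of both labelled sexes; among all genes 19.4% were higher and 18.3% lower by their brightest probe. The 3 with the smallest p were Serpina4-ps1 (-5.05 ± 0.38), Serpina3c and Serpina12 (-1.85 ± 0.19), the gene of the adipokine vaspin. Serpina4-ps1 was well above background on 2 of 6 labelled male and 3 of 6 female pesticide arrays, so its value there is partly set by background; Serpina5 was so on 1 of 6 in either labelled sex. Of 8 secreted serpins of other clades 4 were higher and 1 lower, led by Serpine2 or protease nexin (-2.15), Serpinf2 (antiplasmin, 0.33) and Serpind1 (heparin cofactor, 0.30).

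Genes of the proteases, the acute phase and the regulators of the liver were counted beside the members. Of 11 tested serine proteases that serpins meet, 4 were higher and 1 lower, with plasminogen Plg at 0.65, F10 at 0.26 and F2, prothrombin, at 0.19. Elane, which encodes the neutrophil elastase that some Serpina1 products inhibit, was at -0.03 ± 0.07 (limma adjusted p of 0.762). Of 23 acute phase genes 12 were higher and 0 lower in the mean of both labelled sexes, with Cd14 at 1.49, Itih4 at 0.54 and C3 at 0.23. In labelled males alone 4 of the 23 were higher, and in labelled females 9. Of 19 liver transcription factors and cytokine signals 5 were higher and 0 lower; Cux2 (4.47) and Prlr (3.02), both known as female-biased in mouse liver, led, followed by Il6st (0.20). Of 15 genes of secretory folding and quality control, 3 were higher and 1 lower.

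For the hormone carriers, genes of their hormones were counted too. Of 12 genes of glucocorticoid action 5 were higher and 1 lower: Srd5a1, which reduces steroids, was at -1.81, Sgk1 at 0.93 and Hsd11b1, which regenerates active glucocorticoid, at 0.53. The glucocorticoid receptor Nr3c1 was at 0.26 ± 0.05 (limma adjusted p of 0.000125), and Tat, a liver target, at -0.06 ± 0.11 (0.678). Of 11 genes of thyroid hormone transport and action 3 were higher and 1 lower, with the deiodinase Dio1 at 1.17, Klf9 at -0.55 and the transporter Slc16a10 at 0.48. Transthyretin, Ttr, the other hepatic thyroxine carrier, was at -4e-04 ± 0.04 (limma adjusted p of 0.994). Its SE was as small as those of the Serpina1 probes limited by their ranks, and its value under other scaling is not given.

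Markers of other liver cells moved with the labelled diets. In the mean of both sexes 10 of 11 tested Kupffer cell and macrophage markers, 10 of 10 endothelial and 9 of 11 stellate cell markers were higher and 0 lower. Of 9 tested hepatocyte markers 2 were higher and 0 lower, with the limit of bright probes given above. The summed log2 signal of the Kupffer list ran from 14.28 to 16.17 in labelled male control, 13.95 to 16.35 in female control, 15.60 to 16.43 in male pesticide and 15.12 to 16.81 in female pesticide livers. Of 7 tested neutrophil markers 5 were higher, with sums of 15.32 to 15.64 and 15.32 to 15.51 on labelled male and female control arrays and 15.36 to 15.72 and 15.32 to 15.72 on pesticide arrays. The part of these cells in the differences of Serpina6, Serpina3k and Serpina3m was not tested. More cells of a type cannot be told apart from more RNA per cell. All 10 female-biased liver genes of a list were higher and all 10 male-biased ones lower on the labelled pesticide arrays (median log2 fold changes of 7.04 and -6.10).

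Upstream sequence was at hand for 7 of the 10 members. A stretch of 30 bases upstream of the annotated start is the same in Serpina1a, Serpina1b, Serpina1c, Serpina1d and Serpina1e. Its capitals mark GTTAAT, the core of the site bound by the liver factor HNF1. The stretch is shown because it lies in the promoter that all the alpha-1 antitrypsin genes share. The copy of Serpina1a is at chr12:103863625-103863654 on the minus strand of GRCm38.p6 (RefSeq).
Serpina1 genes: ctgtggtgacattgGTTAATattcactagc
The first base of GTTAAT lay 21 bases before the annotated start of Serpina1a, 26 of Serpina1b, 27 of Serpina1c, 16 of Serpina1d and 78 of Serpina1e. Over 250 bases upstream, with gaps counted as differences, the promoters of Serpina1a to Serpina1d were 84.3% to 91.0% identical in pairs. That of Serpina1e, whose annotated start lies further downstream of the shown stretch, was 58.0% to 64.2% identical to them. The pairs with Serpina1e had 102 to 124 gap positions and only 4 to 9 mismatches. The pairs among Serpina1a to Serpina1d had 4 to 24 gap positions and 11 to 19 mismatches. Serpina7 also holds GTTAAT, which occurs on either strand in 6.4% of 32851 promoters of this length. The motif TTCNNNGAA of STAT factors, found in 7.0% of promoters, was in none of the 7, and TTNNGNAAT of C/EBP factors, found in 10.2%, was in Serpina3n and Serpina7. A match is a description of letters and not a bound site. The upstream sequences of Serpina3k, Serpina3m and Serpina6 were not analysed here.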

How the data were processed

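The members and gene lists were chosen with earlier results of these data known. The deposited scanner files hold spot intensity, and the submitters' processing notes name Agilent Feature Extraction 10.10.1.1. Values in the deposited table are on the log2 scale; per the labels the authors filtered the median signal, took log2 and quantile normalised it. The same was done here from the scanner files: control spots were left out, outlier spots (0 to 9 per array) set to missing, probes printed 10 times averaged, log2 taken and all arrays quantile normalised, with no background subtraction. No spot was saturated, and 29935 to 39032 probes per array were well above background. A probe was tested when well above background on at least 4 of 6 arrays of 1 group. limma 3.58.1 (R 4.3.3) fitted the 4 group means over 24 arrays with 1 shared spread, two-sided, Benjamini-Hochberg adjusted over 32078 probes, with a threshold of 0.05, and tested on simulated data. SE is limma's, SD is over 6 arrays. Arrays give no counts, and their number limits the precision. The 3 slides held 2 arrays of each group. Named were all member probes, the 3 genes with the smallest p in most lists, the 2 genes most like each member and the label check; 1 such gene named by position only is left out, and a few list members were added to these after their values were seen. Alternatives are given in the closing section.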

Additional observations from a re-analysis of the deposited data

Results flagged for a closer look

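In 47 sets of 6 arrays (a member probe in a labelled group), the highest or lowest array was tested for its gap to the nearest other by Dixon's 95% value, which chance passes in about 1 set in 20; 9 sets passed. Serpina3k on labelled male pesticide 5 was 17.16, with the next at 16.53. Serpina3n on labelled male control 4 was 14.01, with the next at 12.64. Serpina6 on labelled male control 1 was 15.50, with the next at 15.09. The other 6 were Serpina1 probes, whose steps are those of neighbouring ranks. Serpina1a (A_55_P2165414) was 18.74 on labelled female control 5, against 18.78, and Serpina1b was 18.70 on male pesticide 3, against 18.68. Serpina1e (A_55_P2113857) was 18.65 on male control 6 and 18.60 on male pesticide 5. Serpina1e (A_66_P124137) was 18.42 on male control 5 and 18.25 on female pesticide 1.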

How the results depend on the processing

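Scaling to the 75th percentile changed the count of called member probes. In labelled males it was 9 with the median signal and 10 with the processed signal, in place of 3. In the mean of both sexes it was 10 with either, and in labelled females 3 with both, as before. The member probes added were all Serpina1 probes. Of all 32078 tested probes 7291 and 7745 were called in labelled males with the median and processed signal, and 5512 and 6058 in labelled females. In the mean no setting called more than 12652. The values that reversed were Serpina1b in males (-0.20, processed signal) and in the mean (-0.15 and -0.17, median and processed signal), Serpina1d in the mean (-0.19 and -0.21), and Serpina1e A_66_P124137 in males (-0.22 and -0.23) and in the mean (-0.19 and -0.20). On slides 1, 2 and 3 alone, with 2 arrays a group, the probes called were 1052, 583 and 459 in males, 1041, 319 and 346 in females and 3499, 1525 and 1792 in the mean, in place of 7131, 5878 and 11593. The member probes called alone on a slide were 0, 2 and 1 in males and 0, 1 and 0 in females (slides 1, 2 and 3). In the mean Serpina6, Serpina3k and Serpina3m were called on slide 1, and Serpina6 and Serpina3k on slide 2. On slide 3 it was 1 in the mean, Serpina6. Among all tested probes, 2 differed between labelled sexes on the pesticide diet on slide 1, and 0 of them were members. Leaving out each array in turn gave 0 to 1 of all tested probes between labelled sexes on either diet. The labels do not say that equal replicate numbers mark paired mice. Of 36 same-numbered pairs 15 correlated above 0.1 (r of -0.12 to 0.34, median 0.078, beside -0.02 for other pairs). Of 24 arrays 14 correlated best with their own number. Same-numbered arrays also shared a slide. Pairs of different groups on the same slide, same-numbered ones included, had a median r of 0.0355. The hint of pairing thus comes from the data and not from the design, and the part of the slide in it was not tested. With the replicate block 8099, 6751 and 12652 probes were called in males, females and the mean, and 3 member probes in each. Normexp background correction, other filters, outlier spots kept, the slide block, other variance settings and the deposited value table left the member counts at 3 in all 3. Under these settings and array omissions Serpina6 kept its direction (0.97 to 1.21 in males, 0.44 to 1.11 in females), and so did Serpina3k (-1.33 to -1.03 and -1.65 to -0.65). The female extremes came from single slides. On slides 1, 2 and 3 alone the limma adjusted p of Serpina6 was 0.0995, 0.0333 and 0.367 in females and 0.074, 0.0192 and 0.0442 in males. For Serpina3k it was 0.0542, 0.238 and 0.356 in females and 0.153, 0.0495 and 0.178 in males.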
